A study of Macaca mulatta with 4 samples.

Results

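The genes described here encode the integrins, the laminins and the proteins that tie laminin into basement membranes, the thin sheets of matrix on which epithelial and endothelial cells rest. Members were set by symbol, with earlier results of these data known. They are the integrin alpha and beta chains, the laminin alpha, beta and gamma chains, the nidogens NID1 and NID2, HSPG2 (perlecan) and AGRN (agrin). Of 42 such symbols, 39 matched a row of the 21314 in the table, made up of 25 integrin, 10 laminin and 4 linker genes. ITGAD, LAMA1 and LAMA5 matched no row, which leaves them unmeasured here and says nothing of their presence.

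The samples were 4 RNA-seq libraries of RF/6A cells, a line established from the eye of a rhesus macaque, labelled as chorioretinal and used elsewhere as a model of endothelium. All 4 are titled static and share 1 lot of cells and 1 culture condition (Dulbecco's medium with antibiotics and 10% bovine serum that had been heat-inactivated, at 37 degrees in 5% CO2), with no treatment, genotype or control cell type to set against them. Being 1 line, the cells give no view of variation between animals, and nothing in the labels says that the libraries came from separate cultures, so each SD measures the spread between these samples only. Estimated counts per library totalled between 20366946 and 20550610.

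Integrins are receptors in the cell membrane that work only as a pair of 1 alpha and 1 beta chain, and the alpha chain largely sets which matrix protein is bound. Laminins are secreted as trimers of 1 alpha, 1 beta and 1 gamma chain that polymerise at the cell surface, and are held there by integrins and dystroglycan. Nidogens bridge laminin to collagen IV, and perlecan and agrin are heparan sulfate proteoglycans of the same sheet. In blood vessels the laminin chains alpha4 and alpha5 are the usual endothelial ones. The counts therefore say for which complexes every chain is transcribed, and RNA does not show the assembled protein.

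Levels are counts-per-million (CPM), with library sizes scaled by the trimmed mean of M-values (TMM), and a gene was called expressed when no library had less than 1 CPM of it. CPM is not divided by transcript length and no length was used here, so a gap in CPM between genes, or between medians of lists, also holds their lengths, and the least abundant chain of a complex was not named. A long transcript also passes 1 CPM at fewer molecules than a short one. By this rule 26 of the 39 members (66.7%) were expressed, against 52.9% of all 21314 rows and 64.2% of rows with a symbol, a share close to that of named genes in general. The median over members of their mean log2(CPM + 0.5) was 3.58, against 1.90 over all rows. A further 7 members reached 1 CPM in some libraries and 6 in none.

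Library 2 differed from the other libraries, and this touches most values below. Ribosomal protein genes took 14.98% of its counts against 6.08% to 6.66% in libraries 1, 3 and 4, rows without a symbol 21.7% against 13.05% to 13.9%, and its TMM factor was 0.793 against 1.08 to 1.09. When it was left out, 30 members were expressed (56.4% of all rows were). Among defining markers, all 10 matched fibroblast genes were expressed, against 64.2% of named rows (median 8.42 log2(CPM + 0.5)). Among them were COL1A1 at 8653, 16445, 8427 and 9600.4 CPM in libraries 1 to 4, COL1A2 at 7613, 9914, 7802 and 8368 CPM and VIM at 4404, 10605, 4349.6 and 5073 CPM. All 3 were highest in library 2, but of the 10 fibroblast genes 6 were below the range of the other libraries there and 4 above it. Shares over all rows with a mean of 1 CPM or more were 48.0% below and 43.8% above. Of 10 endothelial genes 2 were expressed (20%, against 64.2% of named rows, median -0.026). They were EGFL7 at 5.37, 19.9, 9.16 and 8.32 CPM, highest in library 2, and PECAM1 at 2.05, 2.10, 3.41 and 2.40 CPM. KDR, at 2.50, 0.432, 2.07 and 1.49 CPM, joined them without library 2. In bulk RNA, fewer cells of a type and less RNA per cell cannot be told apart.

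**Figure D1:**
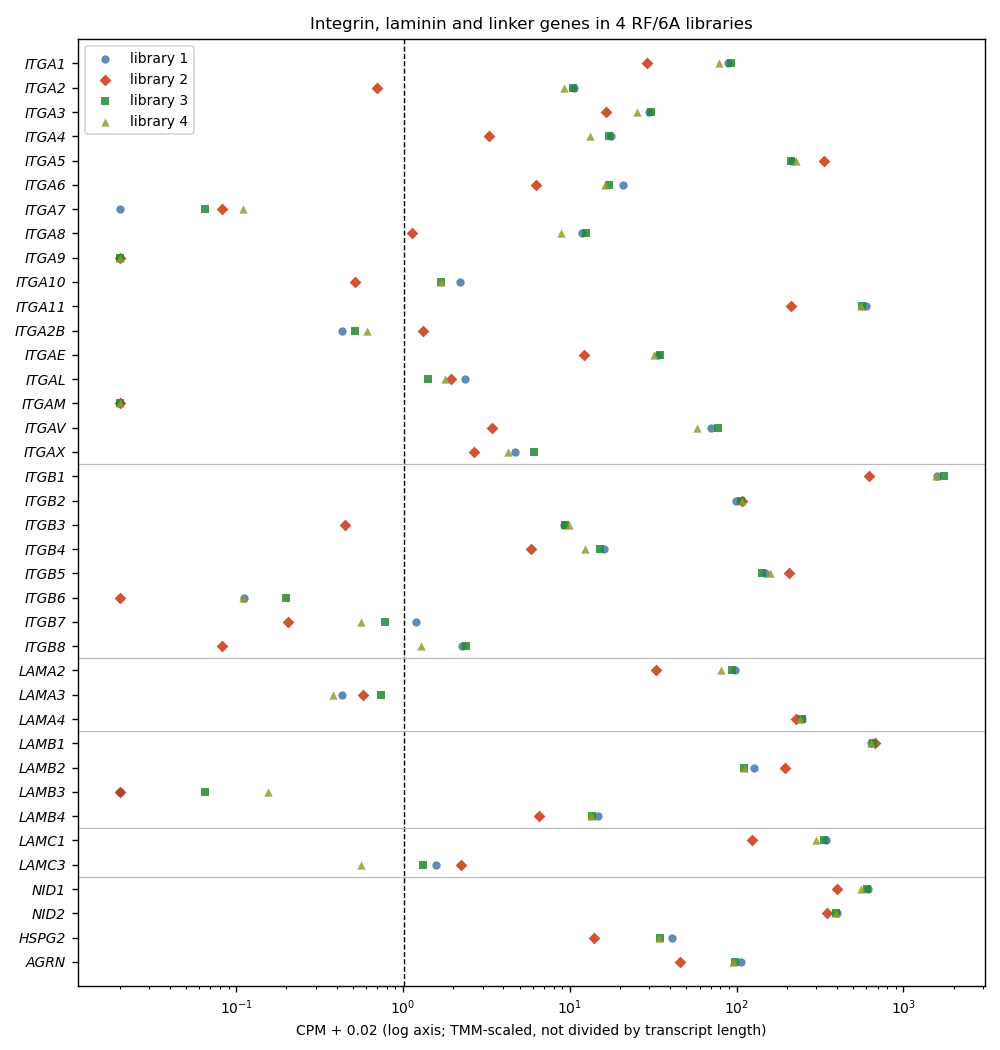
Level of 38 of the 39 matched genes in CPM + 0.02 on a log axis, with 1 point for each of the 4 RF/6A libraries, a dashed line at 1 CPM and grey lines between chain classes. Library 2 (red diamonds) lies left of the other libraries for most integrins, whereas LAMA4, LAMB1 and NID2 lie close together in all 4.

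ITGB1 (beta1, ENSMMUG00000017767), the beta chain that most alpha chains share, measured 1591, 622, 1747 and 1572 CPM in libraries 1 to 4, with a mean of 1383 ± 513 CPM (SD, n = 4). Library 2 was the low one, 2.63-fold below the mean of the others, which spanned 1572 to 1747 CPM. Of the 12 alpha chains known to pair with it, 8 were expressed (ITGA1, ITGA3, ITGA4, ITGA5, ITGA6, ITGA8, ITGA11 and ITGAV), and leaving out library 2 added ITGA2 and ITGA10.

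The collagen-binding alpha chains were all detected. ITGA11 (alpha11, ENSMMUG00000004026), the fibrillar collagen receptor chain of fibroblasts, measured 597, 213, 568 and 557 CPM in libraries 1 to 4. Library 2 was again low, and the others spanned 557 to 597 CPM. ITGA1 (alpha1, ENSMMUG00000001753), which binds collagen IV as well as fibrillar collagens, measured 89.3, 29.2, 92.7 and 78.8 CPM. ITGA2 (alpha2), a collagen receptor of platelets and epithelium, measured 10.6, 0.679, 10.4 and 9.23 CPM, so library 2 alone kept it out of the expressed set. ITGA10 (alpha10), known from cartilage, measured 2.18, 0.493, 1.66 and 1.67 CPM, and it too fell under 1 CPM in library 2 only.

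The fibronectin receptor chain ITGA5 (alpha5, ENSMMUG00000003755) went the other way. It measured 215, 334, 213 and 228 CPM in libraries 1 to 4, a mean of 247 ± 58.2 CPM (SD, n = 4), and library 2 was the high one, 1.53-fold above the mean of the others. ITGA5 was above the range of the other libraries under each of the 3 scalings tried (TMM, DESeq2 size factors and plain CPM). The gap was smaller with plain CPM, at 265 CPM in library 2 against 231 to 245 CPM in the others. ITGA4 (alpha4), a receptor chain for the adhesion molecule VCAM1 and for fibronectin, measured 17.7, 3.27, 17.2 and 13.2 CPM, with library 2 4.91-fold below the others. The ligand itself, FN1, measured 14908, 3228, 13638 and 12619.6 CPM and was also lowest in library 2.

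ITGAV (alphaV, ENSMMUG00000019462), the chain of the vitronectin receptors that recognise the Arg-Gly-Asp motif, had the largest shift of library 2, on the log2(CPM + 0.5) scale, among members with a mean of 1 CPM or more. It measured 70.6, 3.39, 77.1 and 57.5 CPM in libraries 1 to 4, from counts of 1551, 55, 1716 and 1272, so library 2 lay 20.2-fold below the mean of the others. ITGAV passed 1 CPM in every library all the same. ITGA8 (alpha8), another chain of the same ligand class, measured 11.8, 1.11, 12.5 and 8.86 CPM. Its library 2 value was 0.881 CPM with plain CPM, which removed ITGA8 and the α8β1 pair from the expressed set.

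Of the laminin-binding alpha chains, ITGA3 and ITGA6 were expressed and ITGA7 was near 0. ITGA3 (alpha3, ENSMMUG00000000153) measured 29.8, 16.5, 30.7 and 25.4 CPM, and ITGA6 (alpha6, ENSMMUG00000002370) measured 21.0, 6.29, 17.1 and 16.3 CPM. In both genes library 2 lay below the range of the other libraries. ITGA7 (alpha7), the laminin receptor chain of muscle, had counts of 0, 1, 1 and 2 in libraries 1 to 4, and its upper Poisson limit over the 4 libraries was 0.124 CPM (exact, 95%, counting error only). ITGA9 (alpha9), a receptor chain for tenascin, had no count, which allows up to 0.0363 CPM at the limit of 3 counts over the 4 libraries. By the exact Poisson limit given for ITGA7, up to 0.0447 CPM is allowed. Of 6 matched muscle genes 2 were expressed (33.3%, against 64.2% of named rows, median -0.39 log2(CPM + 0.5)). They were DES (desmin) at 3.73, 9.44, 3.32 and 4.97 CPM in libraries 1 to 4 and MYH11 at 1.32, 1.97, 1.26 and 1.94 CPM. Both were highest in library 2, ACTA1 measured 0.273, 0.802, 1.48 and 0.181 CPM, and the muscle regulators MYOD1 and MYOG had no count.

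Among the other beta chains, ITGB5 (beta5, ENSMMUG00000014516), which pairs with alphaV to bind vitronectin, measured 147, 207, 142 and 159 CPM in libraries 1 to 4. Library 2 was the highest with TMM and with DESeq2 size factors, and lay within the range of the others with plain CPM. ITGB3 (beta3, ENSMMUG00000003289), the partner of alphaV in vessels and of the platelet chain ITGA2B, measured 9.19, 0.432, 9.39 and 9.90 CPM, from counts of 202, 7, 209 and 219. Libraries 1, 3 and 4 differed by under 1 CPM, and library 2 was 22.0-fold below their mean. ITGB8 (beta8), whose pair with alphaV binds latent transforming growth factor beta, measured 2.23, 0.0617, 2.38 and 1.27 CPM, from counts of 49, 1, 53 and 28. ITGB6 (beta6), the epithelial partner of alphaV, had counts of 2, 0, 4 and 2 and was below 1 CPM in every library.

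ITGB4 (beta4, ENSMMUG00000021763), the chain that anchors epithelial hemidesmosomes through laminin, measured 15.9, 5.80, 15.1 and 12.3 CPM in libraries 1 to 4. Its only partner, ITGA6, was also expressed. Of the 6 matched hemidesmosome and epithelial genes, 5 were expressed (64.2% of named rows were) and the list median was 4.62 log2(CPM + 0.5). CD151, KRT5, KRT14 and KRT8 matched no row and were not measured. The hemidesmosome linkers PLEC and DST were at 297 ± 137 CPM and 93.4 ± 40.3 CPM (SD, n = 4). The keratin KRT18 was at 1625 ± 1243 CPM, of which library 2 had 3487 CPM. CDH1 (E-cadherin) and EPCAM were lower, at 6.80 ± 1.62 CPM and 2.19 ± 0.733 CPM. COL17A1, the transmembrane collagen of hemidesmosomes, was below 1 CPM in every library, at 0.321 ± 0.188 CPM. PLEC and DST, like ITGB4, were lowest in library 2.

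ITGB2 (beta2, ENSMMUG00000000951), the beta chain of leukocyte integrins, measured 99.3, 108, 106 and 108 CPM in libraries 1 to 4, or 105 ± 4.15 CPM (SD, n = 4). It varied little between libraries, and its library 2 value was level with the highest of the others with TMM and below them all with plain CPM. Of its alpha partners, ITGAL (alphaL) measured 2.32, 1.91, 1.39 and 1.76 CPM and ITGAX (alphaX) 4.69, 2.65, 6.11 and 4.25 CPM. ITGAM (alphaM) had no count (up to 0.0363 CPM allowed at the limit of 3 counts over the 4 libraries). ITGAM, ITGAX and the unmatched ITGAD lie side by side in the RefSeq gene order and are close relatives, and the division of shared reads among them carries an error that a counting interval does not cover.

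Of 9 leukocyte markers, a list that holds ITGB2 itself, 3 were expressed (33.3%, against 64.2% of named rows) and 6 were below 1 CPM in every library, with a median of -0.58 log2(CPM + 0.5). PTPRC (CD45), the pan-leukocyte phosphatase, measured 0.171 ± 0.0240 CPM (SD, n = 4), SPI1, a transcription factor of myeloid and B cells, 0.0339 ± 0.0678 CPM, and CSF1R, the macrophage receptor, 0.0227 ± 0.0262 CPM, while CD3E, of T cells, had no count. The expressed ones beside ITGB2 were LCP1, an actin-bundling protein of leukocytes that is also found in cultured lines, at 151 ± 36.4 CPM and LYZ (lysozyme) at 7.72 ± 1.79 CPM. The summed level of the list was between 214 and 288 CPM in the 4 libraries, and the part of such cells in the ITGB2 level was not tested.

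Neither pair of beta7 nor the pair of alphaIIb passed. The beta7 pairs failed through the low level of ITGB7, and the alphaIIb pair through ITGA2B and, in library 2, ITGB3 (0.432 CPM). ITGAE (alphaE, ENSMMUG00000008556), which binds E-cadherin when paired with beta7, measured 33.9, 12.2, 34.7 and 32.0 CPM, whereas ITGB7 (beta7) measured 1.18, 0.185, 0.764 and 0.543 CPM and passed 1 CPM in library 1 only. Both alpha partners of beta7, ITGAE and ITGA4, were expressed. ITGA2B (alphaIIb), the platelet fibrinogen receptor chain, measured 0.409, 1.30, 0.494 and 0.588 CPM and passed 1 CPM in library 2 only. Of 6 matched platelet genes, ITGA2B and ITGB3 included, 1 was expressed (16.7%, against 64.2% of named rows). Without library 2 there were 2, which adds ITGB3, and the median with it was -0.38 log2(CPM + 0.5). GP1BA and PPBP had 1 count each and GP9 none, and the expressed one was TUBB1, a beta tubulin with close relatives, at 294, 743, 336 and 403 CPM in libraries 1 to 4, highest in library 2.

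In all, 12 of the 23 known integrin pairs with both chains matched had both chains expressed, out of 24 pairs listed. They were α1β1, α3β1, α4β1, α5β1, α6β1, α8β1, α11β1 and αVβ1, with αVβ5, α6β4, αLβ2 and αXβ2. Collagen, fibronectin, laminin and vitronectin receptors were thus each represented at the RNA level, at the threshold of 1 CPM. Within single libraries the count of pairs with both chains at 1 CPM or more was 18 in library 1, 12 in library 2 and 16 in each of libraries 3 and 4. Without library 2 the count was 16, with α2β1, α10β1, αVβ3 and αVβ8 added. At 5 CPM in every library it was 6. The vitronectin receptor αVβ5 was then lost, as was αVβ1, since ITGAV measured 3.39 CPM in library 2. The 7 matched pairs that stayed out with or without library 2 were those of alpha7, alpha9, alphaM, alphaIIb, beta6 and beta7.

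**Figure D2:**
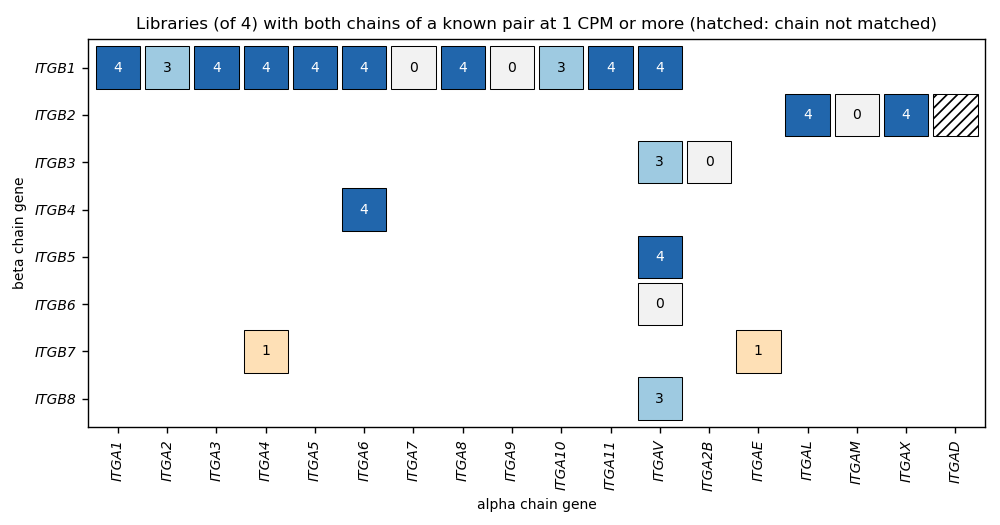
Grid of the 24 known integrin pairs, alpha chain genes along the horizontal axis and beta chain genes along the vertical axis, with the number of the 4 libraries in which both chains reached 1 CPM. The 12 dark cells hold pairs with both chains at that level in all 4 libraries, and the 4 pairs at 3 libraries (α2β1, α10β1, αVβ3 and αVβ8) were missing in library 2.

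Integrin activators and adaptors, a list that holds signalling proteins and regulators besides actin linkers, were nearly all expressed. They passed in 22 of 25 cases (88%, against 64.2% of named rows), with a median of 5.45 log2(CPM + 0.5) against 1.90 over all rows. VCL (vinculin) measured 998, 597, 1028 and 961 CPM in libraries 1 to 4, TLN1 (talin, which switches integrins on) 432, 236, 414 and 402 CPM, and TNS2 (a tensin) 307, 429.6, 291 and 299.7 CPM. FERMT2, the kindlin of adherent cells, measured 155, 21.2, 173 and 135 CPM, and ILK, the scaffold it binds, 130.0, 115, 119 and 119 CPM. The 3 below 1 CPM in every library were FERMT1, the epithelial kindlin, PARVG, a parvin of blood cells, and TNS4. The blood cell kindlin FERMT3 measured 1.501, 6.17, 1.98 and 2.71 CPM. Library 2 was low for VCL, TLN1 and FERMT2 and high for TNS2. Of the 22 expressed genes, 14 were below the range of the other libraries in library 2 and 8 above it. Over all rows with a mean of 1 CPM or more, 48.0% were below it and 43.8% above it.

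Of 19 integrin ligands 12 were expressed (63.2%, near the 64.2% of named rows), with a median of 4.55 log2(CPM + 0.5). THBS1 (thrombospondin) measured 588, 51.1, 577 and 522 CPM in libraries 1 to 4, and FBN1 (fibrillin) 555, 163, 507 and 473 CPM, both lowest in library 2 like FN1. TGFB1, whose latent form alphaV integrins bind, measured 115, 249, 129.5 and 153 CPM and was highest in library 2. Ligands of plasma origin were near 0, with VTN (vitronectin) at 0.0225 ± 0.0260 CPM (SD, n = 4), and the fibrinogen chains FGA, FGB and FGG at 0.0575 ± 0.0876 CPM, 0.576 ± 0.197 CPM and 0.246 ± 0.139 CPM. Such proteins supplied with the serum are not covered by these counts. MADCAM1, a ligand of α4β7, measured 0.207 ± 0.241 CPM, and VCAM1, a ligand of α4β1, 2.38 ± 0.930 CPM.

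Among the laminins, LAMB1 (beta1, ENSMMUG00000006567) measured 641, 675, 654 and 641 CPM in libraries 1 to 4, with a mean of 653 ± 16.1 CPM (SD, n = 4). All 4 libraries lay close, with library 2 above the others under TMM and below them with plain CPM. LAMC1 (gamma1, ENSMMUG00000015084), the gamma chain that most trimers contain, measured 343, 123, 334 and 299 CPM, and library 2 was 2.63-fold below the mean of the others. The 2 chains occur in the same trimers, and their ratio in library 2 was 2.74-fold higher than its mean elsewhere.

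LAMB2 (beta2, ENSMMUG00000002952), a chain of vessel, kidney and nerve terminal laminins, measured 127, 195, 111 and 110.2 CPM. Library 2 was 1.68-fold above the mean of the others and above their range under each of the 3 scalings. The gap was smaller with plain CPM, at 155 CPM in library 2 against 119 to 137 CPM in the others. LAMB4 (beta4, ENSMMUG00000021289) measured 14.8, 6.48, 13.5 and 13.3 CPM and was lowest in library 2. LAMB4 is a relative of LAMB1 and the next protein-coding gene to it in the RefSeq gene order, and the use of strand in the counting is not given in the sources used here, so its level is uncertain. LAMB3 (beta3), a chain of epithelial laminin, had counts of 0, 0, 1 and 3 in libraries 1 to 4.

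Of the laminin alpha chains matched, LAMA4 (alpha4, ENSMMUG00000013782), found in endothelial and mesenchymal matrix, measured 248, 226, 246 and 241 CPM in libraries 1 to 4, a mean of 240.2 ± 10.2 CPM (SD, n = 4). LAMA2 (alpha2, ENSMMUG00000022136), the chain of muscle and peripheral nerve, measured 98.2, 32.8, 94.2 and 80.2 CPM. With TMM, LAMA4 was nearly level across the libraries, whereas LAMA2 was 2.77-fold lower in library 2. With plain CPM LAMA4 too was lower in library 2, at 179 CPM against 259 to 268 CPM in the others. LAMA3 (alpha3), the epithelial alpha chain, measured 0.409, 0.555, 0.719 and 0.362 CPM, below 1 CPM in every library, with an upper Poisson limit of 0.688 CPM (exact, 95%). LAMA1 (embryonic) and LAMA5 (the other endothelial alpha chain) were not measured.

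LAMC3 (gamma3, ENSMMUG00000002267) was detected at few counts. It measured 1.55, 2.22, 1.30 and 0.543 CPM in libraries 1 to 4, and library 4 alone, with 0.543 CPM, kept it out of the expressed set.

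Of 13 laminin trimers listed, 8 had every chain matched and 4 had every chain expressed: laminin-211, laminin-221, laminin-411 and laminin-421. The digits give the alpha, beta and gamma chain in turn. All 4 contain gamma1, and they join either alpha2 or alpha4 to either beta1 or beta2. Laminin-213 and laminin-423 passed in libraries 1, 2 and 3 and failed in library 4 through LAMC3, so the count was 6 without library 4 and 4 without library 1, 2 or 3. Laminin-311 and laminin-321 had LAMA3 below 1 CPM. The 5 trimers of LAMA1 and LAMA5 could not be assessed. For laminin-511 and laminin-521, the beta and gamma chains were expressed.

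**Figure D3:**
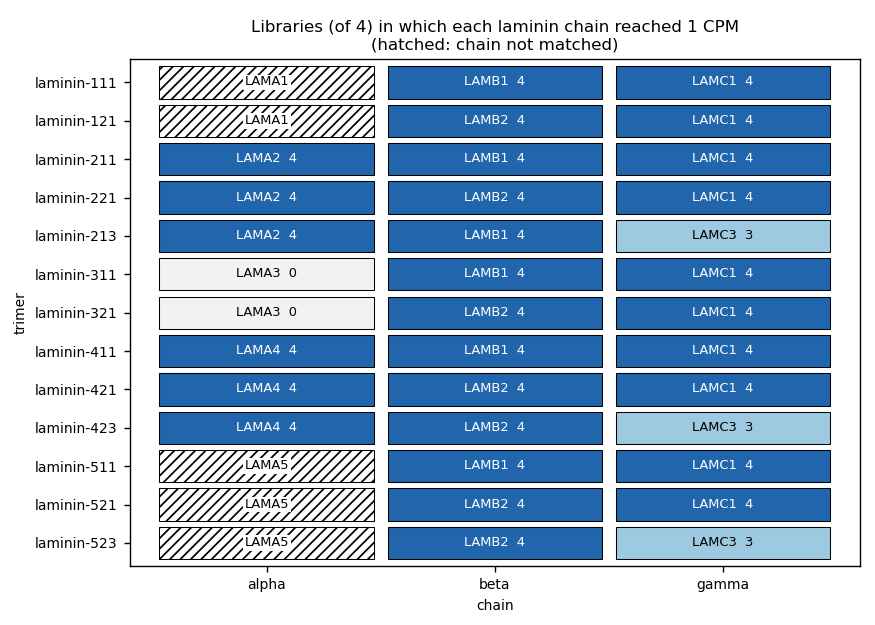
Each row is 1 of the 13 laminin trimers and each cell a chain, with the number of the 4 libraries in which its gene reached 1 CPM. Rows 211, 221, 411 and 421 are dark throughout, LAMC3 reached 1 CPM in 3 libraries, and hatched cells mark LAMA1 and LAMA5, which matched no row.

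The linker genes were all expressed, 4 of 4. NID1 (nidogen-1, ENSMMUG00000012716) measured 615, 399, 602 and 559 CPM in libraries 1 to 4 and NID2 (nidogen-2, ENSMMUG00000018201) 398, 351, 392 and 395 CPM. Library 2 was the lowest in both, by 1.48-fold and 1.13-fold with TMM. With plain CPM the gap of NID2 was wider, at 278 CPM in library 2 against 425 to 430 CPM in the others. HSPG2 (perlecan, ENSMMUG00000014828) measured 41.1, 14.0, 34.8 and 34.2 CPM and AGRN (agrin, ENSMMUG00000000838) 106, 45.9, 97.7 and 94.5 CPM. In both proteoglycans library 2 was more than 2-fold below the lowest other library, and the others differed little.

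Other basement membrane genes were expressed in 10 of 19 matched cases (52.6%, against 64.2% of named rows), with a median of 2.08 log2(CPM + 0.5). Without library 2 they were expressed in 14 of 19 (56.4% of all rows were). COL4A3, COL4A4, COL4A6 and FRAS1 fell under 1 CPM in library 2 only. SPARC and TINAGL1 matched no row. The collagen IV chains COL4A1 and COL4A2, which laminin is bridged to, measured 489.9, 179, 473 and 402 CPM and 647, 470.1, 621 and 619.9 CPM in libraries 1 to 4. COL18A1, a collagen with heparan sulfate chains that is found in vessel and epithelial membranes, measured 246, 382, 229 and 258 CPM. NTN4, a laminin-related netrin, measured 156, 82.6, 173 and 161 CPM. COL4A1 and NTN4 were lowest and COL18A1 highest in library 2.

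A list of laminin receptors other than integrins, with dystroglycan-associated proteins and the enzymes that glycosylate dystroglycan, had 16 of 17 matched genes expressed. That was 94.1%, against 64.2% of named rows, and the median was 5.47 log2(CPM + 0.5). RPSA and SGCB matched no row. DAG1 (dystroglycan) measured 371, 278, 376 and 377 CPM in libraries 1 to 4, SDC2 (a syndecan) 1137, 1267, 1189 and 1232 CPM, and UTRN (utrophin, which ties dystroglycan to actin) 180.0, 27.9, 159 and 164 CPM. LARGE2, a glycosyltransferase of that pathway, was the member below 1 CPM in every library, at 0.313 ± 0.157 CPM (SD, n = 4). BCAM, a receptor for the laminin alpha5 chain, measured 20.4, 62.2, 19.9 and 23.7 CPM and was highest in library 2.

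The shift of library 2 was uneven among the members. Of the 31 members with a mean of 1 CPM or more, 23 were below the range of the other libraries in library 2 (48.0% of the rows at that level were), 6 above it (43.8% of rows) and 2 within it. In 18 of the 31 (58.1%) library 2 was more than 2-fold below the lowest other library, against 24.9% of the 12453 rows. With plain CPM these were 20 (64.5%) against 34.5%. The median difference of library 2 from the mean of the others was -1.23 log2(CPM + 0.5) for the members and -0.067 for all rows with TMM, and -1.54 and -0.49 with plain CPM, so the members lay 1.16 and 1.05 log2 units below the median of all rows. By Dixon's gap test a library lay apart in 7 of the 31 members, library 2 each time (low in 6 and high in ITGA5), whereas 33.8% of all rows had a library apart, library 2 low in 11.2% and high in 21.8%. Ribosomal protein counts moved with this shift as given above, and their part in it was not tested.

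**Figure D4:**
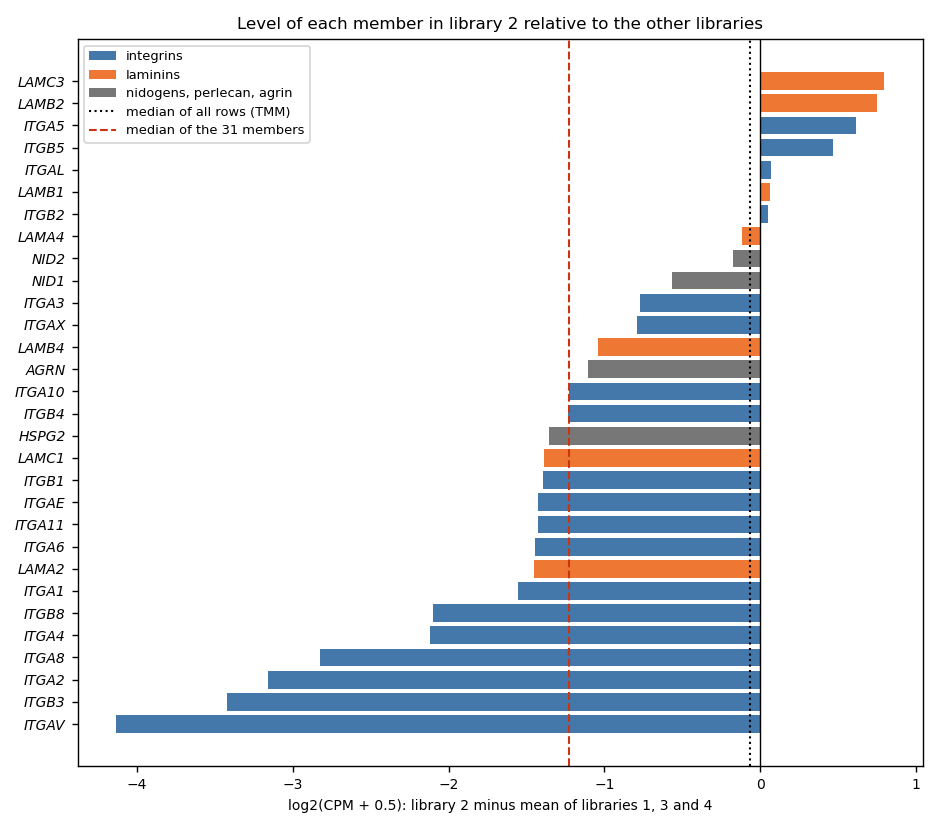
Bars give, for 30 of the 31 members with a mean of 1 CPM or more, log2(CPM + 0.5) in library 2 minus its mean in libraries 1, 3 and 4. ITGAV, ITGB3 and ITGA2 extend furthest left, LAMB2, LAMC3 and ITGA5 lie right of 0, and the dashed and dotted lines mark the medians of the 31 members (-1.23) and of all rows (-0.067).

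Ratios of 2 chains were taken from CPM + 0.5 and compared between libraries without transcript length. Length cancels if its effect is the same in each library, which was not tested. The added 0.5 CPM also alters ratios at few counts: the shift of ITGB1 to ITGB8 was 1.63-fold with it and 11.6-fold without. Of 17 chain pairs, library 2 was outside the range of the other libraries in 15 (88.2%). Among single rows with a mean of 1 CPM or more it was outside in 91.7%. That share is of single genes, and none was computed over pairs of other genes. Neither this count nor the shifts below are therefore shown to be particular to the chains. With the 0.5 CPM, library 2 shifted by more than 1 log2 unit in 9 pairs, while libraries 1, 3 and 4 differed by at most 0.77 log2 units in any pair. Without it, library 2 did so in 10 pairs. The range among libraries 1, 3 and 4 is then wider for LAMC1 to LAMC3, where LAMC3 measured 0.543 CPM in library 4. The ratio of ITGAV to ITGA5 was 26.9-fold lower in library 2, or 30.6-fold without the 0.5 CPM. That of ITGB5 to ITGB3 was 14.8-fold higher, or 30.4-fold without the 0.5 CPM, and rests on the 7 counts of ITGB3 in library 2. ITGB1 relative to ITGB5 was 3.63-fold lower. Among laminins, LAMA2 relative to LAMA4 was 2.52-fold lower, and LAMB1 relative to LAMB2 1.61-fold lower. ITGA11 relative to ITGA1 shifted by 0.13 log2 units and HSPG2 relative to AGRN by -0.25, small shifts that still lay outside the range of the other libraries. ITGB1 to ITGB4 and LAMA3 to LAMA4 stayed within the range of the other libraries.

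**Figure D5:**
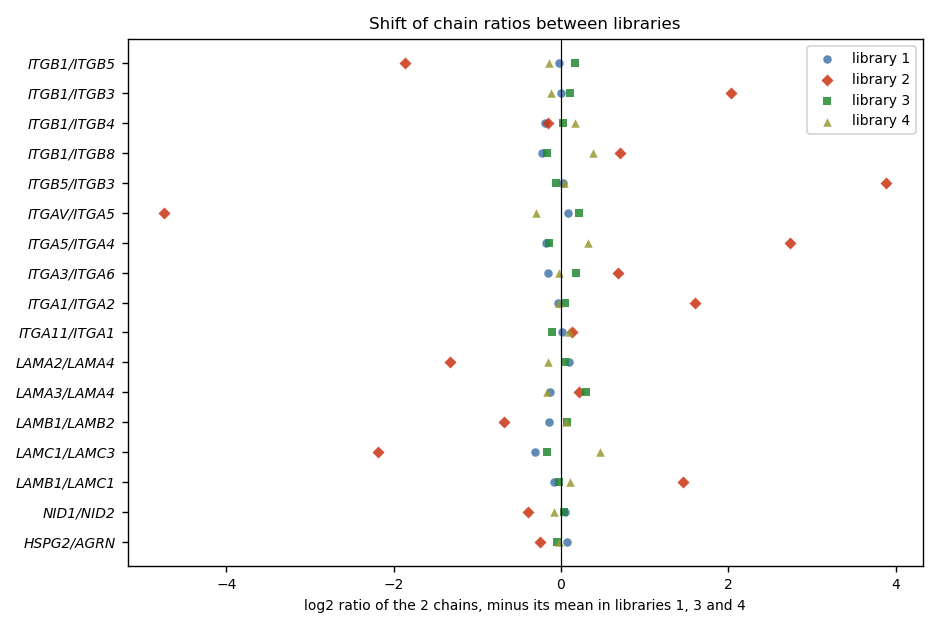
For each of 17 chain pairs, the log2 ratio of CPM + 0.5 in each library is shown relative to its mean in libraries 1, 3 and 4, on a linear axis of log2 units. Libraries 1, 3 and 4 cluster around 0, and library 2 lies at -4.75 for ITGAV to ITGA5 and at 3.89 for ITGB5 to ITGB3.

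The median coefficient of variation of the members was 8.21% without library 2 and 37.4% with it, over the 31 members with a mean of 1 CPM or more. ITGB1, for instance, had 1637 ± 96.1 CPM (SD, n = 3) without library 2, LAMC1 325 ± 23.4 CPM and ITGAV 68.4 ± 9.96 CPM. LAMC3, at few counts, varied more among libraries 1, 3 and 4, with 46.3%, as did ITGB8 with 30.9% and ITGAL with 25.6%.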

How the data were processed

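RNA of 4 RF/6A libraries was measured by RNA-seq, 1 group with replicates numbered in the titles. The authors deposited estimated counts per Ensembl rhesus gene, rounded to whole numbers and not divided by length. The submitters' processing notes name Salmon and DESeq2 with no version. The build and the use of strand in counting were not given in the sources used here. Symbols came from a table of Ensembl identifiers, which named 14654 of 21314 rows. The order of genes came from RefSeq (T2T-MMU8v2.0).

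Counts were scaled by TMM (edgeR 4.0.16, R 4.3.3) to CPM. The members and lists were chosen with earlier results of these data known. Of the matched members, 1 is counted and not reported here, as is 1 gene of the lists. The others are named, with the 3 highest genes of each list and others chosen after their values were seen. There is 1 group, so no p-value was computed. Comparisons between chains per coding length were planned and not made, since no length was used. Ratios between libraries and counts of members low in library 2 were added after seeing the data. Dixon's test was tested on simulated data. A count of 3 was the limit for 0 counts, and Poisson limits cover counting error only.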

Additional observations from a re-analysis of the deposited data

Results flagged for a closer look

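Dixon's gap test was run on 74 values (the members with a count, the 3 highest genes of each list and the list medians), and 1 library stood off from the rest in 23 of them. About 1 in 20 would be flagged by chance, and 33.8% of all rows with a mean of 1 CPM or more were flagged by the same test, so the share here (31.1%) is near that of all genes. In 22 of the 23 it was library 2 (16 low, 6 high), so the flags are not independent. Among members it was low for ITGA2 (0.679 CPM), ITGA11 (213 CPM), ITGAE (12.2 CPM), ITGB1 (622 CPM), ITGB3 (0.432 CPM) and NID2 (351 CPM) and high for ITGA5 (334 CPM).

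Among the genes around them, library 2 was low for the actin linkers VCL (597 CPM) and TLN1 (236 CPM), the ligand THBS1 (51.1 CPM), COL4A2 (470 CPM), DAG1 (278 CPM) and UTRN (27.9 CPM). It was high for TNS2 (430 CPM), KRT18 (3487 CPM), COL1A1 (16445 CPM) and VIM (10605 CPM).

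As medians of log2(CPM + 0.5), library 2 was high for integrin activators and adaptors (5.82) and low for integrin ligands (3.83), other basement membrane components (0.74), hemidesmosome and epithelial genes (3.75) and fibroblast genes (8.25). Summed CPM went the other way in 3 of these lists. For activators and adaptors it was 2561 in library 2 against 3377 to 3528 elsewhere, for hemidesmosome and epithelial genes 3632 against 1470 to 1501, and for fibroblast genes 43368 against 27491 to 30284. The endothelial list had library 4 high, at 0.17.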

How the results depend on the processing

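Expressed members numbered 26, with 25 to 31 under the other scalings, the mean in place of every library, filterByExpr, a threshold of 0.5 CPM and the omission of each library, and 20 at 5 CPM. Integrin pairs numbered 12, with 11 to 16 under the same settings and 6 at 5 CPM, and laminin trimers 4, with 4 to 6 (6 without library 4). Expressed genes of the 10 lists numbered 83, with 71 to 90. Members with a library apart numbered 7, and 13 on log2(CPM + 0.5). With plain CPM library 2 was apart and low in 10 members and apart and high in 0. Leaving out library 2 raised the mean CPM of ITGB2 (113), LAMA4 (265), LAMB1 (697) and NID2 (427) by more than their SD, since it also changed the scaling, and leaving out library 3 lowered that of LAMB1 (635). No paired analysis was possible because there is only 1 group. Depth limits genes at a few counts, such as ITGA7, ITGB6 and LAMB3.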

Other observations

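Some genes around the laminins differed among libraries 1, 3 and 4 as well. They were picked with their values known. SMOC2, a matricellular protein of basement membranes, had counts of 0, 2, 57 and 56 in libraries 1 to 4. FBLN1 (fibulin-1) measured 225, 127, 102 and 109 CPM, so library 1 was the high one. COL4A5, a collagen IV chain, measured 59.3, 20.4, 52.7 and 27.0 CPM, and libraries 2 and 4 were the low ones. FRAS1, which helps to anchor epithelial basement membranes, measured 5.69, 0.493, 2.61 and 3.57 CPM, and COL4A3, another collagen IV chain, 3.28, 0.493, 1.08 and 1.63 CPM, both highest in library 1.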
